A study of Homo sapiens with 6 samples.

Results

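Transcripts of 10 keratin genes were followed in A549 cells, a human lung adenocarcinoma line, among 20824 genes listed in any library. The genes were taken by name and divided by protein class into 5 type I members (KRT10, KRT15, KRT17, KRT18 and KRT19) and 5 type II members (KRT7, KRT8, KRT80, KRT81 and KRT86). They were chosen by their estimated counts in the knockdown and scramble libraries, which were known beforehand. Their levels, fold changes and type I to type II balance are therefore a description. Calls and counting intervals printed for them use the values that chose them, so they are no independent test and nothing is read from them. The study compared 3 libraries of cells carrying an shRNA against C19orf12 with 3 libraries of cells carrying a scrambled shRNA, the control that the labels treat as wild type. All were made from polyadenylated RNA, and no label states if the replicates were grown apart or if a group was 1 clone, so errors and p-values cover only how far these libraries differ, which may be technical.

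Keratins build the intermediate filaments of epithelial cells, and each filament unit pairs a type I with a type II chain. KRT8 with KRT18 is the pair of simple, single-layered epithelia, where KRT7 and KRT19 are also found. KRT17, KRT6A and KRT16 are known for epidermal injury and for hair follicles, KRT15 for basal cells, KRT10 for the differentiated epidermis, and KRT81 and KRT86 for the hair shaft. The type II genes lie in a cluster on chromosome 12, with KRT18 at its end, and the other type I genes lie in a cluster on chromosome 17.

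Coding sequences of the members were in median more alike within a type than between types, with overlapping ranges. They also make 1 pair of members hard to count. Between pairs of type I members the coding identity ran from 64.4% to 75.6% (median 68.6%), between pairs of type II members from 64.5% to 94.2% (median 68.4%), and between a type I and a type II member from 59.0% to 66.3% (median 61.1%). KRT81 and KRT86 were 94.2% identical over 1457 aligned coding bases and shared an unbroken run of 605 bases. Of the 50-base words in the KRT81 transcript 42.1% also occurred in transcripts of other genes in the deposited files, and for KRT86 35%. KRT83, a further hair keratin of the same cluster, was 93.3% identical to KRT81. The 60-base coding stretch in which these 3 genes differ most is shown from GENCODE release 29 transcripts, 5′ to 3′, because reads from it can be told apart, with capitals at the 22 positions that are not the same in all 3:
KRT81: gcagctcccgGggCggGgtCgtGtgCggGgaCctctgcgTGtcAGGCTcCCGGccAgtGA
KRT86: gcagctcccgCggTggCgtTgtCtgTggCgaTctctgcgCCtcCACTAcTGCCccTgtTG
KRT83: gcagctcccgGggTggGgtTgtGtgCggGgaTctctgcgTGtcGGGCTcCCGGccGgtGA
It spans coding bases 1286 to 1345 of KRT81 and of KRT86 and 1301 to 1360 of KRT83, counted from the start codon. Most of the capitals set KRT86 apart, while KRT81 and KRT83 are alike at most of them and are less easily told apart there. Counts of KRT81, KRT86 and KRT83 are estimates that divide shared reads and are uncertain between the 3 genes. KRT85, which shares 50-base words with KRT81 and KRT86, was 86.9% and 87.8% identical to them. Its counts carry part of this uncertainty. The KRT8 and KRT18 transcripts shared 29.2% and 30.4% of their 50-base words with transcripts of any other gene in the annotation, where the genes sharing most were pseudogenes. With genes listed in the deposited files they shared 2.32% and 1.08%. KRT8P41 and KRT18P55, pseudogenes that the files list, had at most 3.09 counts in any library. Exons of KRT8 and KRT18 overlap over 135 bases on opposite strands, and the libraries are not stated to keep strand.

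Libraries held 10229890 to 10647587 estimated counts. C19orf12, the targeted gene, was at 24.2, 26.4 and 25.2 CPM (counts scaled to library size after TMM) in knockdown replicates 1, 2 and 3, against 42.5, 41.1 and 63.3 CPM in scramble replicates 1, 2 and 3. It fell by 0.95 on the log2 scale in the knockdown group (SE 0.20; edgeR, Benjamini-Hochberg adjusted p = 0.015, n = 3 each). The call was lost without knockdown replicate 1, 2 or 3 (adjusted p = 0.0908, 0.0755 and 0.0879), and without scramble replicate 3 the log2 fold change was -0.73 (adjusted p = 3.17e-08). Scramble replicate 3 stood apart, with a correlation of log2 CPM across genes of 0.954 and 0.955 with scramble replicates 1 and 2, which correlated at 0.993 with each other. In it KRT7, KRT8, KRT18, KRT80, KRT81 and KRT86 lay 0.50 to 0.57 above the mean of scramble replicates 1 and 2 on the log2 scale, and the other 4 from -0.06 to 0.85. For genes within 1 percentage point of the GC content of each of these 6, the median shift was 0.47 to 0.50. The part of this shift in the results was not tested. Member values are therefore given with and without that library, and other genes with all 6 libraries unless stated. Of the epithelial markers EPCAM, CDH1, CLDN4, CLDN7, CRB3, ESRP1 and ESRP2, 3 of 7 reached 1 CPM in every library. The 7 summed to 175 to 187 CPM in knockdown libraries and 132 to 162 CPM in scramble libraries. CDH1, the E-cadherin gene, held most of this, with 167 ± 5.14 CPM in knockdown and 136 ± 14.9 CPM in scramble libraries, while EPCAM was at 2.36 ± 0.212 CPM in knockdown and 1.12 ± 0.412 CPM in scramble libraries (SD, n = 3 each). Neither passed the test with all 6 libraries (edgeR adjusted p = 0.254 and 0.059), and both did without scramble replicate 3 (edgeR adjusted p = 1.6e-06 and 0.0398). The splicing regulators ESRP1 and ESRP2 were lower, at 0.365 ± 0.114 and 3.29 ± 0.516 CPM in knockdown libraries, against 1.4 ± 0.462 and 4.64 ± 0.653 CPM in scramble libraries. ESRP1 was below the count filter, and was called without scramble replicate 3 (edgeR adjusted p = 0.000561), while ESRP2 did not pass (edgeR adjusted p = 0.201). CLDN7 was at 0.699 ± 0.361 CPM in knockdown and 0.912 ± 0.162 CPM in scramble libraries, and CLDN4 at 2.1 ± 0.44 CPM in knockdown and 2.11 ± 0.708 CPM in scramble libraries. CRB3, a polarity gene, rose to 6.21 ± 1.09 CPM in knockdown libraries, against 1.1 ± 0.231 CPM in scramble libraries (edgeR adjusted p = 0.000458). It reached the minimum of the count filter in 3 knockdown and 2 scramble libraries. Of blood cell markers, PTPRC was at 1.26 ± 0.307 CPM in knockdown and 1.12 ± 0.303 CPM in scramble libraries, and CD14 at 0.266 ± 0.0573 CPM in knockdown and 0.283 ± 0.093 CPM in scramble libraries. The endothelial markers PECAM1, CDH5 and VWF summed to at most 3.9 CPM in any library, with CDH5 and VWF at 0 in scramble libraries. Fibroblast markers (COL1A1, DCN, LUM, PDGFRB, THY1) summed to 24 to 26.5 CPM in knockdown and 36.5 to 47.8 CPM in scramble libraries, nearly all of it COL1A1, with DCN at 0 in knockdown and LUM at 0 in scramble libraries. The part of these markers in the keratin values was not tested.

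The keratin pool of these cells was built mostly from 4 genes, KRT18, KRT8, KRT81 and KRT7, and its makeup differed between the groups. The simple epithelial pair KRT8 and KRT18 was several-fold higher in the knockdown libraries, while KRT7 and KRT81 had knockdown to scramble ratios of mean CPM of 0.998 and 0.839. KRT17 and KRT19 were also higher but remained rare, and KRT80 and KRT10 were lower. In bulk RNA a change in the share of cells that express a gene and a change in RNA per cell cannot be told apart. Of the 10 members all were tested, and 4 were called higher (KRT8, KRT18, KRT17 and KRT19) and 1 lower (KRT80) by edgeR's quasi-likelihood test with all 6 libraries, where 11.5% of all genes were called. KRT17 and KRT19 passed the filter on low counts only through the knockdown group, and the count uses the values that chose the members, so nothing is read from it. The median log2 fold change was 0.09 over the 10 members, 1.31 over the type I and -0.25 over the type II members, against 0.02 over all genes tested. Without scramble replicate 3, 5 members were higher and 3 lower, where 49.5% of all genes were called, and the medians were 0.18, 1.52 and -0.04. CPM ranges of the groups did not overlap for 7 of the 10 members, 4 above and 3 below, as for 37% of all genes tested (18.4% above and 18.6% below).

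**Figure D1:**
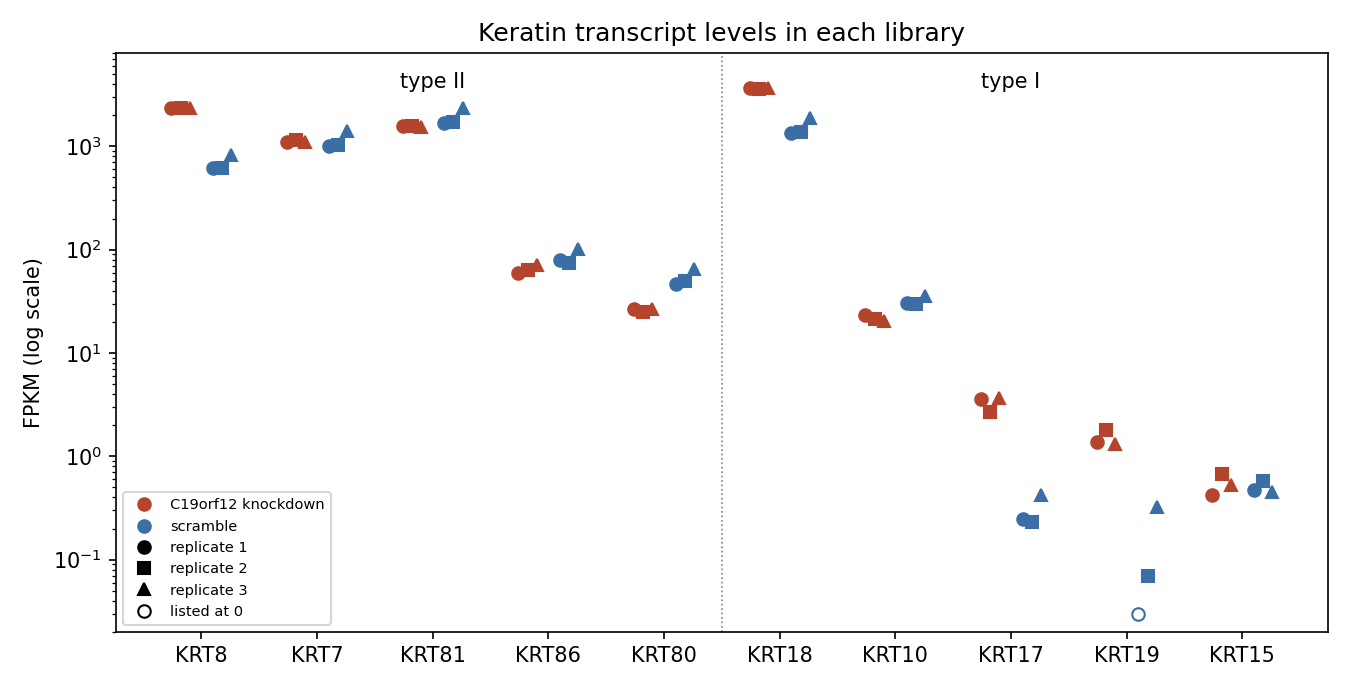
FPKM, which are scaled for transcript length and depth, of the 10 keratin genes in each library on a log axis; red points are knockdown libraries, blue points scramble libraries, and marker shapes give the replicate number. KRT8, KRT18, KRT17 and KRT19 were higher in every knockdown library than in any scramble library, and KRT7, KRT86 and KRT15 overlapped on the CPM scale; on this FPKM scale KRT86 did not. The open point is KRT19 in scramble replicate 1, listed at 0.

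KRT8, the type II chain of simple epithelia, was at 4653, 4633 and 4559 CPM in knockdown replicates 1, 2 and 3, against 1155, 1150 and 1688 CPM in scramble replicates 1, 2 and 3. Every knockdown library lay above every scramble library. The knockdown to scramble ratio of mean CPM was 3.47, or 4 against scramble replicates 1 and 2 alone, and the log2 fold change was 1.79 (SE 0.17), or 2.00 without scramble replicate 3. Its mean transcript length, which the deposited files weight by the estimated share of each transcript, was 1933, 1916 and 1922 bases in knockdown libraries and 1964, 1972 and 1972 bases in scramble libraries. The length ranges did not overlap, so the estimated mix of KRT8 transcripts differed slightly as well.

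KRT18, the type I partner of KRT8, was the most abundant keratin per transcript length in the knockdown libraries. It was at 5578, 5417 and 5519 CPM in knockdown replicates 1, 2 and 3, against 1912, 1924 and 2830 CPM in scramble replicates 1, 2 and 3. The groups did not overlap, and scramble replicate 3 was the scramble library nearest to the knockdown group. On the CPM scale the knockdown to scramble ratio was 2.48, or 2.87 against scramble replicates 1 and 2, with a log2 fold change of 1.31 (SE 0.17) and 1.52 without scramble replicate 3. Its mean transcript length was 1484 to 1485 bases in every library.

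KRT7, a type II keratin of simple and glandular epithelia, is often used with other markers to trace the origin of carcinomas. It measured 1947, 2050 and 1951 CPM in knockdown replicates 1, 2 and 3, against 1690, 1734 and 2536 CPM in scramble replicates 1, 2 and 3. The groups overlapped because scramble replicate 3 was the highest of the 6 libraries. The ratio of mean CPM was 0.998 with all libraries and 1.16 against scramble replicates 1 and 2, so the direction of this difference rests on 1 library.

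KRT19, a short type I keratin of simple and ductal epithelia, was near the limit of detection. It had 21, 27 and 20 estimated counts in knockdown replicates 1, 2 and 3, against 0, 1 and 5 in scramble replicates 1, 2 and 3, where 3 counts are the limit that a count of 0 allows. Summed over the groups, 68 counts stood against 6, a ratio of 12 after scaling with an exact 95% interval of 5.24 to 33.9. Without scramble replicate 3 a single scramble count remained, and the interval was 8.45 to 1951, set by counting error on that single count. Such intervals cover counting error only.

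KRT17, the type I keratin of injured epidermis and of basal-like carcinomas, was higher in each knockdown library, yet far below KRT18 in level. Estimated counts were 58, 43 and 59 in knockdown replicates 1, 2 and 3, against 4, 3.77 and 7 in scramble replicates 1, 2 and 3. The scaled ratio of summed counts was 11.3 with an exact 95% interval of 6.65 to 20.7, and 14.3 (7.1 to 33.7) without scramble replicate 3. On the FPKM scale KRT17 averaged 3.33 ± 0.561 in knockdown libraries and 0.3 ± 0.104 in scramble libraries (SD, n = 3 each), beside 3655 ± 56.4 in knockdown and 1528 ± 288 in scramble libraries for KRT18. In words of 50 bases, KRT17 shared 17.4% of its transcript with other annotated genes, led by its pseudogenes, and 1.77% with genes in the files.

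KRT10 and KRT15, the type I keratins of differentiated and of basal layers, did not follow KRT18. KRT10 measured 51, 47.5 and 45 CPM in knockdown replicates 1, 2 and 3, against 63.3, 62.1 and 79.1 CPM in scramble replicates 1, 2 and 3, so that every knockdown library lay below every scramble library. Its log2 fold change was -0.51 (SE 0.16), which was not called with all 6 libraries, and -0.39 without scramble replicate 3, which was called. KRT15 had 8, 13 and 10 counts in knockdown libraries and 9, 11 and 9 in scramble libraries. The KRT15 groups overlapped, and the scaled ratio of 1.13 had an exact 95% interval of 0.66 to 1.95, which covers counting error only.

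KRT80, a type II keratin of differentiating epithelia, was lower where KRT8 was higher. It was at 108, 99.8 and 107 CPM in knockdown replicates 1, 2 and 3, against 173, 186 and 261 CPM in scramble replicates 1, 2 and 3. The groups did not overlap, with a log2 fold change of -0.98 (SE 0.18), or -0.77 without scramble replicate 3. Leaving out any 1 knockdown library ended its call, with the sign kept.

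The hair keratins KRT81 and KRT86 were both measured well above the detection limit. KRT81 was the most abundant type II member of the scramble libraries per transcript length, and on the CPM scale it had 3091, 3077 and 2982 CPM in knockdown replicates 1, 2 and 3, against 3109, 3160 and 4631 CPM in scramble replicates 1, 2 and 3. All knockdown values lay below all scramble values, but the gap to scramble replicate 1 was smaller than the spread within the knockdown group. KRT86 was at 127, 135 and 151 CPM in knockdown replicates 1, 2 and 3, against 159, 147 and 217 CPM in scramble replicates 1, 2 and 3, with overlapping ranges on this scale; on the FPKM scale the KRT86 groups did not overlap. Their log2 fold changes were -0.25 (SE 0.17) and -0.34 (SE 0.18) with all libraries, and -0.04 and -0.16 without scramble replicate 3. The FPKM ratio of KRT81 to KRT86 was 26.4, 24.8 and 21.5 in knockdown and 21.2, 23.3 and 23.2 in scramble libraries, which overlap.

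**Figure D2:**
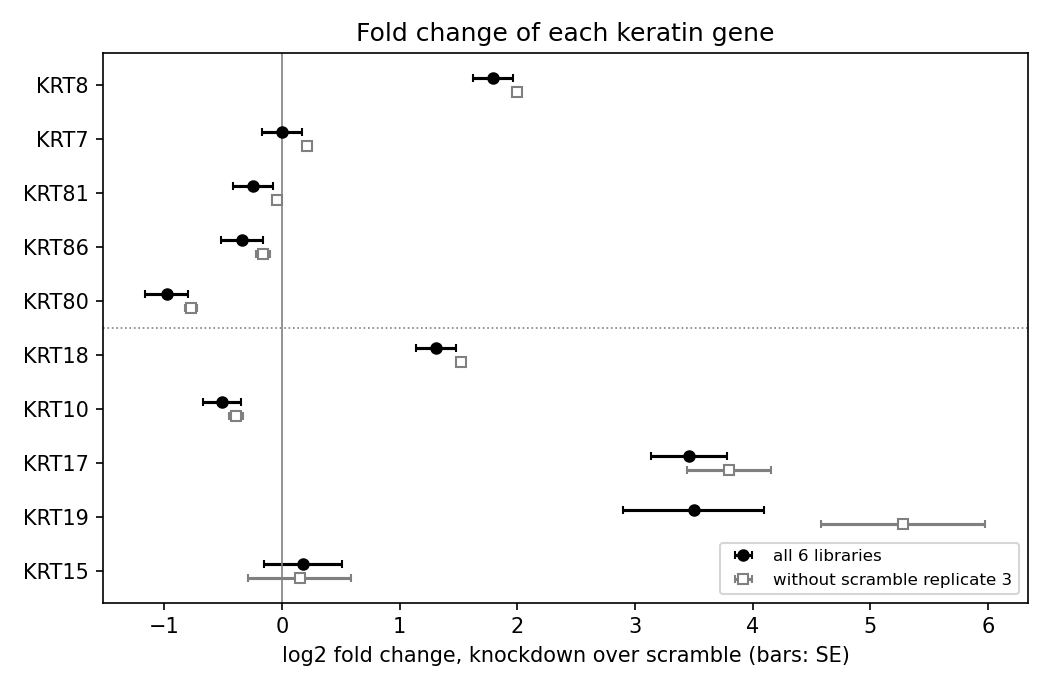
Log2 fold change of each keratin gene, knockdown over scramble, with its SE, with all 6 libraries (black circles) and without scramble replicate 3 (open squares). Type II genes stand above the dotted line; KRT8 was at 1.79 and KRT80 at -0.98, and every open square but that of KRT15 lies to the right of its black circle.

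The order of levels per transcript length was read from FPKM means. In knockdown libraries KRT18 (3655 ± 56.4) stood first, followed by KRT8 (2352 ± 18.1), KRT81 (1553 ± 26.6) and KRT7 (1111 ± 31.4; SD, n = 3 each), and these 4 differed by more than their SDs. In scramble libraries KRT81 (1914 ± 363) stood first, followed by KRT18 (1528 ± 288), KRT7 (1152 ± 221) and KRT8 (686 ± 125). Within each scramble library the order was the same, although KRT81 and KRT18, and KRT18 and KRT7, overlapped within their SDs. Scramble replicate 3 was the highest of the scramble libraries for all 4 genes. KRT86 and KRT80 followed in both groups, at 64.4 ± 5.76 and 26.3 ± 1.1 FPKM in knockdown and 84.7 ± 14.2 and 53.6 ± 9.84 FPKM in scramble libraries. KRT10 came next, at 21.7 ± 1.33 FPKM in knockdown and 32 ± 2.96 FPKM in scramble libraries, and KRT17, KRT19 and KRT15 were below 4 FPKM in each library. KRT8 thus ranked next to KRT18 in knockdown libraries and below KRT81, KRT18 and KRT7 in scramble libraries.

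Since type I and type II chains pair one to one in filaments, the FPKM of the members were summed by type. The type I to type II ratio was 0.73, 0.7 and 0.733 in knockdown replicates 1, 2 and 3, against 0.403, 0.4 and 0.401 in scramble replicates 1, 2 and 3. Means were 0.721 ± 0.0181 in knockdown and 0.401 ± 0.00163 in scramble libraries (SD, n = 3 each), a description of the values that chose the genes. The ratio of scramble replicate 3 lay between those of the other scramble libraries although its keratin levels were higher, and without it the scramble mean was 0.402. Type II transcripts exceeded type I transcripts in all 6 libraries. The summed type I FPKM were 3682 ± 57 in knockdown and 1561 ± 291 in scramble libraries, and the summed type II FPKM were 5106 ± 59.2 in knockdown and 3890 ± 732 in scramble libraries.

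KRT18 made up 99.3% of the type I pool in knockdown and 97.9% in scramble libraries, so the type I sum is nearly that of 1 gene. The type II pool was shared by several genes and changed in makeup. KRT8 held 46.2%, 45.8% and 46.2% of it in knockdown replicates 1, 2 and 3, against 17.9%, 17.5% and 17.5% in scramble replicates 1, 2 and 3. KRT81 held 30.4% ± 0.336 in knockdown and 49.2% ± 0.0962 in scramble libraries, and KRT7 held 21.8% ± 0.428 in knockdown and 29.6% ± 0.194 in scramble libraries (SD, n = 3 each). KRT81 thus led the type II pool in every scramble library and KRT8 in every knockdown library. Within the pair itself the balance went the other way from the sums: the KRT18 to KRT8 ratio of FPKM was 1.57, 1.52 and 1.58 in knockdown and 2.2, 2.24 and 2.24 in scramble libraries, since KRT8 differed more than KRT18.

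**Figure D3:**
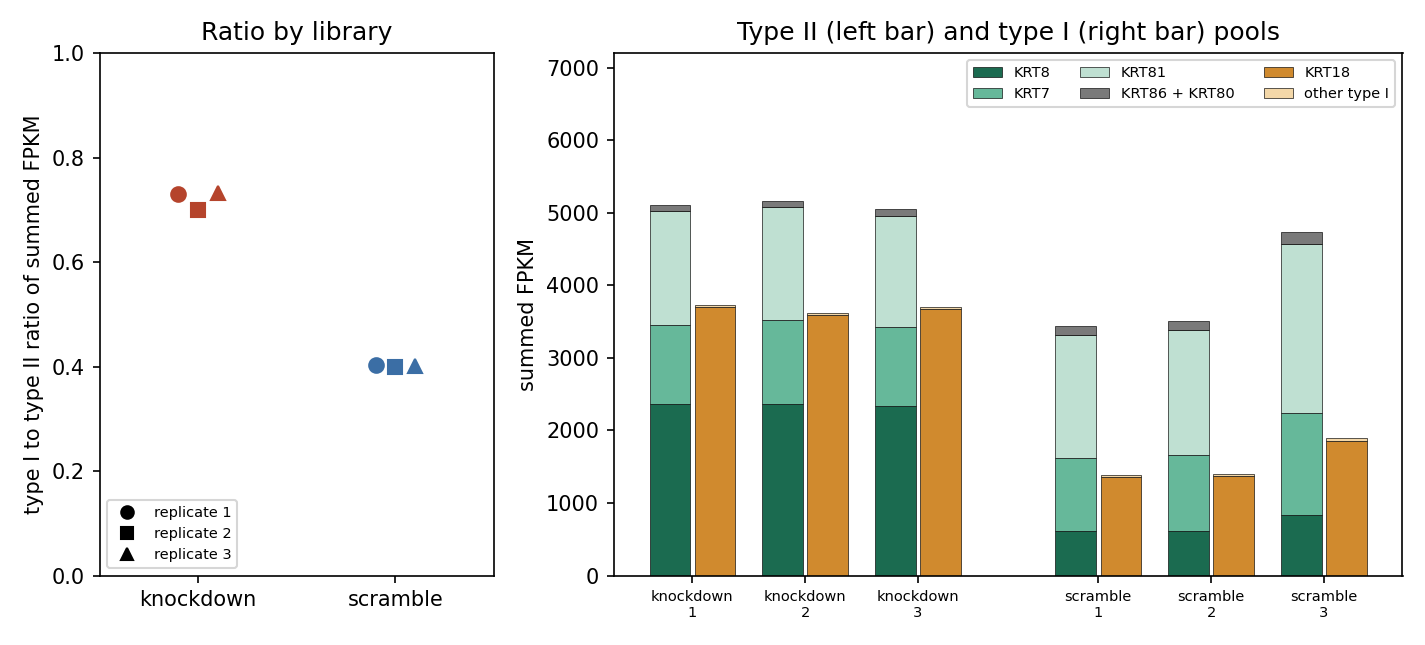
Left, the type I to type II ratio of summed FPKM in each library (markers give the replicate number); right, the FPKM of type II (left bar of each pair) and type I genes (right bar) stacked by gene. The ratio was 0.7 to 0.733 in knockdown and 0.4 to 0.403 in scramble libraries, and KRT8 is the part of the type II bar that differs most.

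The members took 1.52%, 1.51% and 1.5% of all estimated counts in knockdown replicates 1, 2 and 3, against 0.861%, 0.877% and 1.19% in scramble replicates 1, 2 and 3. The whole keratin pool was thus larger in each knockdown library. Without KRT8 and KRT18 the type I to type II ratio was 0.00981 in knockdown and 0.0104 in scramble libraries, so that the remaining members were almost wholly type II in both groups. Leaving out KRT81 and KRT86, whose counts share reads, the ratio was 1.06 in knockdown and 0.825 in scramble libraries.

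Keratin genes outside the 10 were rare. Of 45 further keratin genes on fixed lists 25 were listed in a file and 4 were tested, all type II. Of these 4, 1 rose and 1 fell (median log2 fold change -0.06), where 5.89% of all genes were higher and 5.64% lower. KRT6A, the type II partner of KRT16 and KRT17 in injured epidermis, rose, with 12.9, 16.6 and 15.3 counts in knockdown replicates 1, 2 and 3, against 0, 0 and 1 in scramble replicates 1, 2 and 3 (adjusted p = 0.00123 by edgeR). It passed the filter on low counts only through the knockdown group, and had to differ. Its scaled ratio of 47.7 had an exact 95% interval of 8.13 to 1924, and without scramble replicate 3, when no scramble count remained, the exact lower limit was 8.38. KRT16 was below the filter, with 14 counts over the knockdown and 6 over the scramble libraries and an interval of the ratio of 0.892 to 7.85. The type I genes KRT20 and KRT12, also below the filter, went the other way. KRT20 had 8 counts over the knockdown and 25 over the scramble libraries, with an interval of 0.132 to 0.775. KRT12 had 0 and 12, with an upper limit of 0.381. These intervals cover counting error only. KRT4, a keratin of the lining of mouth and gullet, fell to 1.1 ± 0.267 CPM in knockdown libraries, against 2.36 ± 0.291 CPM in scramble libraries (log2 fold change -1.09, adjusted p = 0.0397 by edgeR). It reached the count minimum of the filter in 3 scramble and 2 knockdown libraries. That call was lost with DESeq2, with the replicate number as a block and without any 1 library other than scramble replicate 3 (adjusted p = 0.0641 to 0.189). KRT83 (33.5 ± 10.4 CPM in knockdown and 35.8 ± 11.4 CPM in scramble libraries) and KRT85 (16.7 ± 1.63 CPM in knockdown and 17 ± 5.38 CPM in scramble libraries) did not pass the test, and their signs turned without scramble replicate 3 (log2 fold changes 0.17 and 0.25). Other markers of basal or squamous cells were low, with DSG3 at 3.13 ± 0.589 CPM in knockdown and 3.23 ± 0.123 CPM in scramble libraries, and TP63, KRT5 and KRT14 below 0.5 CPM on average in either group.

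Of 17 other intermediate filament genes 11 were tested, of which 1 rose and 2 fell (median log2 fold change 0.21, against 0.02 over all genes), where 5.89% of all genes were higher and 5.64% lower. PRPH, which encodes the neuronal filament protein peripherin, fell to 0.299 ± 0.1 CPM in knockdown libraries, against 2.54 ± 0.56 CPM in scramble libraries (log2 fold change -3.04, SE 0.38, adjusted p = 0.00115 by edgeR), and passed the count filter only through the scramble group. BFSP1, a lens filament gene, fell (-1.23, adjusted p = 0.00293), and NEFL, the neurofilament light chain, rose (1.32, adjusted p = 0.00364). VIM, the mesenchymal filament gene vimentin, was at 894 ± 25.9 CPM in knockdown and 1246 ± 255 CPM in scramble libraries (-0.48, adjusted p = 0.0965), and LMNA, the lamin of the nuclear envelope, at 446 ± 3.87 CPM in knockdown and 339 ± 74.4 CPM in scramble libraries (0.39, adjusted p = 0.191). VIM and LMNA passed without scramble replicate 3 (-0.30 and 0.59, adjusted p = 2.52e-08 and 3.25e-12), a setting with 6 higher and 4 lower genes in the list, where 25.7% of all genes were higher and 23.8% lower.

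Genes of desmosomes and hemidesmosomes, the junctions that anchor keratin filaments, were listed together. Of 23 listed genes 19 were tested, of which 5 rose and 1 fell (median log2 fold change 0.31, against 0.02 over all genes), where 5.89% of all genes were higher and 5.64% lower. ITGB4, the hemidesmosome integrin, rose to 1042 ± 10.8 CPM in knockdown libraries, against 364 ± 84.2 CPM in scramble libraries (log2 fold change 1.52, SE 0.18, adjusted p = 0.000774 by edgeR). COL17A1, the hemidesmosome collagen, rose to 4.52 ± 0.735 CPM in knockdown libraries, against 0.57 ± 0.357 CPM in scramble libraries (2.97, adjusted p = 0.00114, and 3.56 without scramble replicate 3). COL17A1 passed the count filter only through the knockdown group. The integrin gene ITGA6 and the linker gene DST, named after their values were seen, were not called (-0.29 and -0.07, edgeR adjusted p = 0.585 and 0.921). Both were called lower without scramble replicate 3 (-0.59 and -0.40, edgeR adjusted p = 1.82e-10 and 1.31e-07), where ITGB4 was at 1.72. JUP, the plakoglobin gene, rose to 399 ± 8.17 CPM in knockdown libraries, against 207 ± 49.4 CPM in scramble libraries (0.94, adjusted p = 0.00994). PPL, the periplakin gene, fell (-1.13, adjusted p = 0.00805), and the remaining called genes, DSP and PKP2, are named after their values were seen. DSP, the desmoplakin that binds keratin filaments, was at 404, 410 and 443 CPM in knockdown replicates 1, 2 and 3, against 186, 187 and 76.7 CPM in scramble replicates 1, 2 and 3 (1.48, adjusted p = 0.0125). Here scramble replicate 3 was the lowest library, unlike for the keratins, and without it the log2 fold change was 1.17. PKP2 was at 0.91 (adjusted p = 0.0308). PLEC, the plectin gene, at 1345 ± 44.3 CPM in knockdown and 1086 ± 230 CPM in scramble libraries (0.31, adjusted p = 0.288), and PERP, at 494 ± 19 CPM in knockdown and 416 ± 18 CPM in scramble libraries (0.25, adjusted p = 0.277), did not pass with all 6 libraries and did without scramble replicate 3 (0.49 and 0.27). JUP lost its call without knockdown replicate 1, 2 or 3 (adjusted p = 0.0503, 0.0616 and 0.0576), PPL without knockdown replicate 2 or 3 (0.0564 and 0.0593), DSP without knockdown replicate 3 (0.0528), and PKP2 without any 1 library other than scramble replicate 3 (0.0502 to 0.16). In these settings 2 to 4 genes rose, where 460 to 654 genes were higher among the 15001 to 15049 tested. Without scramble replicate 3, 11 rose and 5 fell, against 25.7% and 23.8% of all genes.

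Among 14 proteins that bind or modify keratins, 13 were tested, and 3 rose and 0 fell (median log2 fold change 0.40), where 5.89% of all genes were higher and 5.64% lower. The 0 lower genes came from edgeR, which found 0 at an unadjusted p of 0.05 as well, as did DESeq2 and limma-voom, and 8 rose and 2 fell without scramble replicate 3, against 25.7% and 23.8% of all genes. SFN, the 14-3-3 sigma protein that binds KRT17 and KRT18, rose to 255 ± 10.1 CPM in knockdown libraries, against 86.9 ± 20.3 CPM in scramble libraries (log2 fold change 1.55, SE 0.19, adjusted p = 0.000899 by edgeR). TGM2, a transglutaminase that cross-links proteins, rose to 1816 ± 26.6 CPM in knockdown libraries, against 678 ± 158 CPM in scramble libraries (1.42, adjusted p = 0.000997). FAM83H, which recruits casein kinase 1 to keratin filaments, was at 155 ± 0.852 CPM in knockdown and 88.6 ± 20.6 CPM in scramble libraries (0.81, adjusted p = 0.021), and this call was lost without any 1 library other than scramble replicate 3 (adjusted p = 0.0793 to 0.106). CSNK1A1, the kinase gene itself, was at 152 ± 6.57 CPM in knockdown and 160 ± 33 CPM in scramble libraries (-0.07, adjusted p = 0.852), and the 14-3-3 gene YWHAZ at 832 ± 31 CPM in knockdown and 709 ± 187 CPM in scramble libraries (0.23, adjusted p = 0.532). Without scramble replicate 3, CSNK1A1 was called lower (-0.23, edgeR adjusted p = 0.000147) and YWHAZ was not called (0.03, edgeR adjusted p = 0.547).

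Of 33 transcription factors known to act on keratin genes 26 were tested, of which 5 rose and 2 fell (median log2 fold change 0.00), where 5.89% of all genes were higher and 5.64% lower. EHF, an epithelial ETS factor, rose to 5.42 ± 0.0659 CPM in knockdown libraries, against 1.31 ± 0.5 CPM in scramble libraries (log2 fold change 2.03, adjusted p = 0.00187 by edgeR). EHF reached the minimum of the count filter in 3 knockdown and 2 scramble libraries. SNAI1, a repressor of epithelial genes, rose (1.27, adjusted p = 0.00461), and the AP-1 genes JUN (-1.22, adjusted p = 0.00243) and FOSL1 (-1.18, adjusted p = 0.00385) fell. The other called factors, named after their values were seen, were KLF5 (1.19), KLF4 (0.84) and the AP-1 gene FOS (0.76), so that AP-1 genes moved in both directions. ELF3 was at 232 ± 1.54 CPM in knockdown and 279 ± 66.7 CPM in scramble libraries (-0.26, adjusted p = 0.418) and CEBPB at 204 ± 34 CPM in knockdown and 222 ± 55.8 CPM in scramble libraries (-0.13, adjusted p = 0.772). The calls of KLF4 and FOS were lost without any 1 knockdown library (adjusted p = 0.06 to 0.141), FOS also without scramble replicate 1 or 2 (0.102 and 0.12), and KLF4 without scramble replicate 2 (0.0548). With DESeq2, 5 rose and 4 fell, where 961 of all 14812 genes tested were higher and 928 lower. Without scramble replicate 3, 9 rose and 7 fell, where 25.7% of all genes were higher and 23.8% lower.

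**Figure D4:**
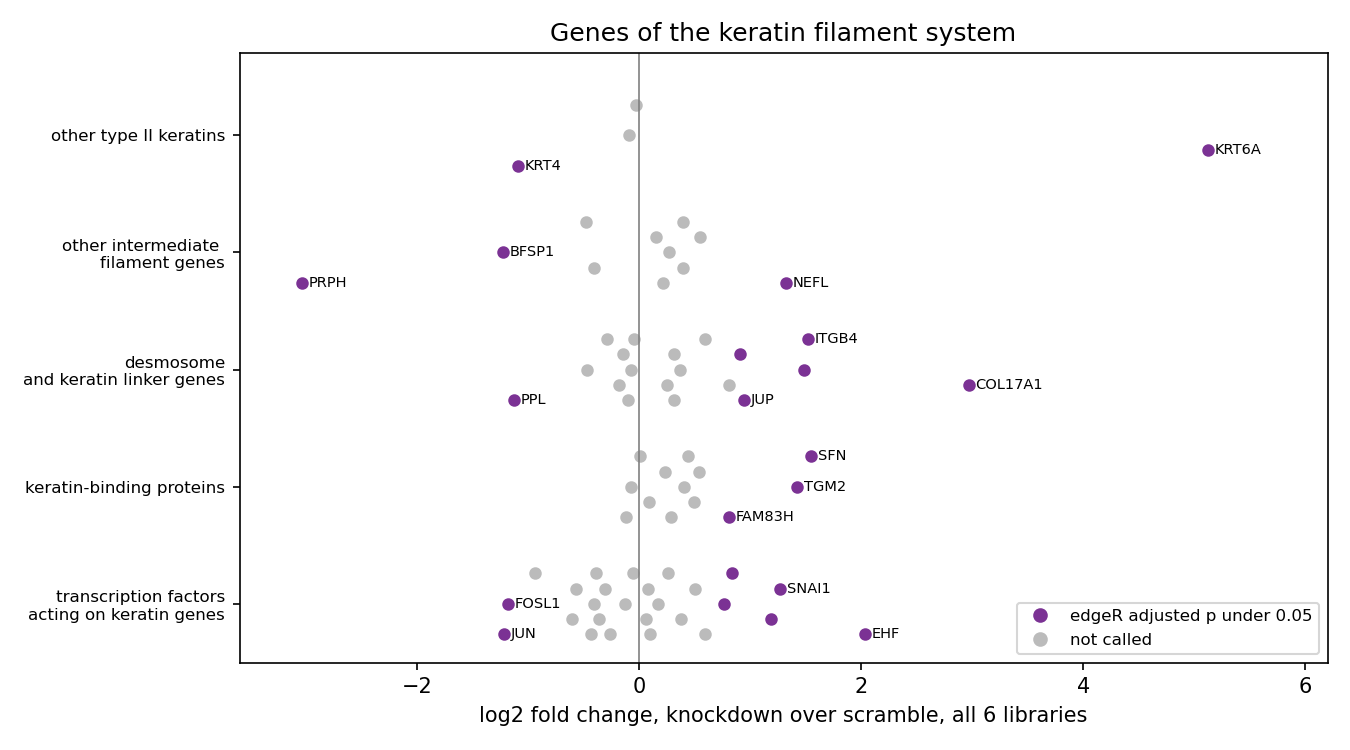
Log2 fold change, knockdown over scramble with all 6 libraries, of each tested gene of 5 lists; purple points passed edgeR's adjusted p of 0.05, and labels mark called genes taken by the naming rule. KRT6A lies farthest right at 5.12, and 5 desmosome and linker genes are purple to the right of 0 against 1 to the left.

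In the order of the RefSeq annotation of GRCh38, used for order only, the chromosome 12 cluster of 27 keratin genes opens with KRT80 (-0.98 on the log2 scale), KRT7 (-0.00), KRT86 (-0.34) and KRT81 (-0.25), and closes with KRT8 (1.79) and KRT18 (1.31). KRT8 and KRT18 lie side by side, and KRT6A (5.12) and KRT4 (-1.09) lie between the ends. On chromosome 17, KRT10 (-0.51) lies apart from KRT15 (0.18) and its neighbour KRT19 (3.50), with KRT17 (3.46) at the far end. Outside the clusters, next to KRT18, EIF4B, a translation factor, rose (0.63, adjusted p = 0.0142 by edgeR) and TNS2, a tensin, fell (-0.86, adjusted p = 0.0254), while SPRYD3 did not pass (-0.14, adjusted p = 0.708). On the other side NR4A1, an orphan nuclear receptor, rose (1.76, adjusted p = 0.000181) and ATG101 did not pass (-0.24, adjusted p = 0.454). Beside the chromosome 17 cluster TNS4, a tensin of epithelial adhesions, rose (2.05, adjusted p = 0.00012), and EIF1, next to KRT17, fell (-0.83, adjusted p = 0.0126). CCR7 (0.64), SMARCE1 (0.18) and HAP1 (-0.32) did not pass (adjusted p = 0.0922, 0.664 and 0.546). The calls of EIF4B, TNS2 and EIF1 were lost without any 1 knockdown library (adjusted p = 0.0621 to 0.141).

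**Figure D5:**
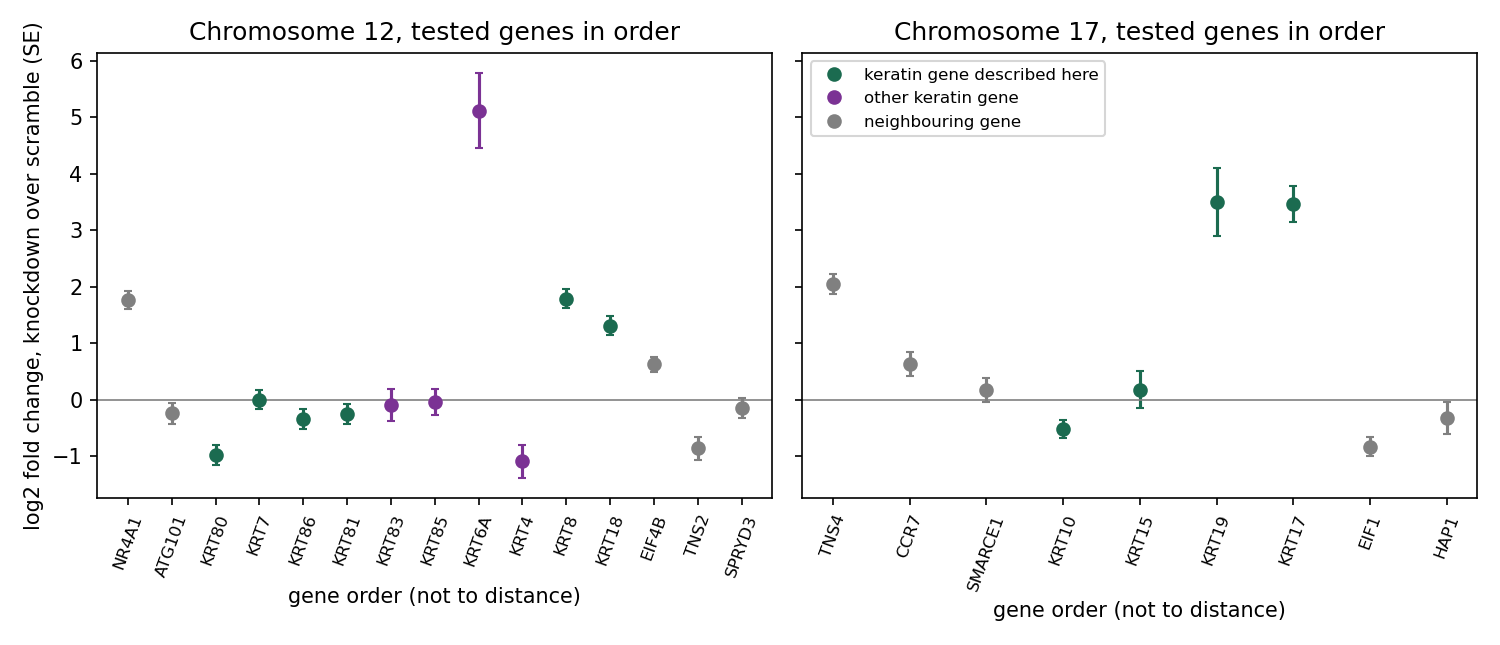
Log2 fold change with its SE, knockdown over scramble with all 6 libraries, of tested genes in their order along the keratin clusters and their flanks, not drawn to distance. Green points are the keratin genes described here; KRT8 and KRT18 stand together at 1.79 and 1.31, next to EIF4B at 0.63.

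For the members at the extremes, the genes with the most similar profile were taken by the root mean square difference of centred log2(CPM + 0.5) over the 6 libraries, over all genes that averaged 5 CPM or more. Among the closest to KRT80 were MRC2 (0.02), ANGPTL4 (0.03), ESYT1 (0.04) and FJX1 (0.04), with log2 fold changes between -1.03 and -0.94. MRC2, an endocytic collagen receptor, averaged 154 CPM in knockdown and 294 CPM in scramble libraries. Closest to KRT19 were GPR37, SEMA3B, HSPA2, USH1C and FSTL4, each at 0.18, with log2 fold changes between 1.89 and 2.07. The added 0.5 CPM flattens the profile of KRT19, whose scramble level was below it.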

How the data were processed

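Polyadenylated RNA of 6 A549 libraries was measured. The authors deposited, per gene and library, RSEM expected counts (estimated counts that need not be whole), FPKM and a mean transcript length, per the file headers. The build hg19 and the tools RSEM, Bowtie2 and BWA are named, without roles or versions, per the submitters' processing notes. Genes that a file does not list count as 0 there. Entrez IDs were named by RefSeq (20727 of 20824), with 0.147% of counts unnamed.

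Expected counts were rounded and analysed over all genes with edgeR 4.0.16 in R 4.3.3 (TMM, filterByExpr with a minimum count of 10, glmQLFTest), leaving 14812 genes. The call threshold was 0.05 after Benjamini-Hochberg adjustment. SEs come from the F statistic. Intervals of count ratios are exact (Clopper-Pearson). The procedure was tested on simulated data, in which no library stood apart as scramble replicate 3 does, so that feature is not covered. DESeq2 1.42.0 and limma 3.58.1 were alternatives. Sequences come from GENCODE release 29 transcripts matched by RefSeq accession.

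Members, lists and tests were chosen with earlier results of these data known. Named are all members, up to 4 called genes with the smallest p and 2 uncalled genes with the highest mean per list, up to 3 flanking genes per cluster side, and the 5 nearest profiles of the extreme members. Some items that these rules name are not reported here.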

Additional observations from a re-analysis of the deposited data

How the results depend on the processing

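With all 6 libraries 1708 genes and 5 of the 10 keratin members were called. Other scaling, filters, DESeq2 and limma-voom gave 1659 to 1889 genes and 5 members. Leaving out 1 library gave 729 to 7439 genes and 4 to 8 members. Without knockdown replicate 1, 2 or 3 the gene counts were 766, 742 and 729, and without scramble replicate 3 it was 7439, with 8 members. The cause was not tested; the coefficient of variation between replicates was 18.9% over the 6 libraries and fell to 2.97% once scramble replicate 3 was left out. The labels do not say if replicate numbers pair the libraries. Correlations of deviations from the group means were -0.036, 0.002 and -0.024 for replicates 1, 2 and 3. They cannot decide this, because scramble replicate 3 dominates the deviations of its group. The fit with the replicate number as a block called 1654 genes and 5 members.

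The type I to type II ratio was 0.721 in knockdown and 0.401 in scramble libraries. On the CPM scale, without length correction, it was 0.562 and 0.313, over all measured keratin genes 0.718 and 0.398, without KRT8 and KRT18 0.00981 and 0.0104, and without KRT81 and KRT86 1.06 and 0.825. Leaving out 1 library gave 0.715 to 0.732 for knockdown and 0.4 to 0.402 for scramble.

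Signs turned for genes near 0 that were not called with all 6 libraries. Leaving out 1 library gave log2 fold changes of -0.30 to 0.17 for KRT83 (0.14 without knockdown replicate 3), -0.21 to 0.25 for KRT85 (0.04 without knockdown replicate 2), -0.23 to 0.01 for CSNK1A1, -0.27 to 0.10 for CEBPB (0.01 without knockdown replicate 1), -0.24 to 0.05 for SPRYD3 and -0.03 to 0.29 for SMARCE1. KRT85 was also at 0.01 with the block and 0.02 with limma-voom. Among the members, leaving out 1 library gave -0.03 to 0.33 for KRT15 (-0.03 without knockdown replicate 2). For KRT7 it gave -0.12 to 0.21 (0.21 without scramble replicate 3). Counts of KRT15, KRT17, KRT19 and KRT6A are small and limit their precision.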
